A study of Mus musculus with 9 samples.

Results

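The genes described here encode the killing machinery of cytotoxic T cells: the granzymes Gzma, Gzmb, Gzmc, Gzmd, Gzme, Gzmf and Gzmk, perforin (Prf1), Fas ligand (Fasl) and serglycin (Srgn). They were selected by gene symbol, and all 10 were found among the 37022 genes with a row in the deposited tables. Each gene was represented by 1 annotated transcript, the one whose gene body held most signal on average. The libraries hold nascent RNA of mouse CD8+ T cells, captured after living cells had taken up 5-ethynyl uridine, an analogue of uridine that enters RNA while it is being made. The 3 groups of 3 libraries are called acute (acute stimulation, no inhibitor named), chronic (chronic stimulation, no inhibitor named) and MEK-inhibited (chronic stimulation with inhibition of MEK, the kinase that activates ERK in the MAP kinase cascade). The mouse strain and age, the stimulus and its duration, and the inhibitor and its dose are not given in the sources used here. Nor is it given whether libraries of a group came from separate mice or cultures, so p-values measure only the spread between these libraries, which may be technical.

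A cytotoxic T cell kills by 2 main routes. In the first, granules are released towards the target: perforin forms pores in the target membrane and granzymes, a family of serine proteases, enter and cut proteins that start cell death, while serglycin is the proteoglycan that holds both in the granule. In the second, Fas ligand on the T cell surface engages Fas on the target and activates caspases there. Exhaustion is the state of reduced function that T cells reach under persistent stimulation, and the series asked how nascent transcription differs between acute and chronic stimulation and what MEK inhibition changes in the latter.

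The deposited gene-body signal summed to between 48601757 and 52216192 per library, but its unit is not a read and the depth in reads is unknown. A few ribosomal RNA-like genes held 19.1% to 22.3% of it in acute, 34.2% to 40.6% in chronic and 29.0% to 36.1% in MEK-inhibited libraries. Values below are therefore scaled by a trimmed mean over genes, and directions are relative to that mean. All 10 T cell and CD8 markers passed the filter described below in these libraries, and their summed scaled signal was 40307 to 47482 in acute, 30651 to 32027 in chronic and 36496 to 39497 in MEK-inhibited libraries. Of these 10, 1 was called higher and 6 lower in chronic than in acute libraries, beside 18% and 15.9% of all genes tested. Cd8a had means of 4060, 968 and 2881, Cd28 went the other way with 3202, 4967 and 1946, and Cd3d and Cd3g were called in no comparison. Of 7 natural killer cell markers 3 passed, the summed level was 216 to 339, 281 to 352 and 195 to 217, and the defining marker Ncr1 was at 0 to 6.40. Of 8 myeloid markers 4 passed, with sums of 512 to 792, 727 to 1714 and 528 to 893. Lyz2 and Cd14 had group means between 0.867 and 3.23, and Fcgr3, at 291, 993 and 459, was higher in chronic than in acute libraries (limma adjusted p = 0.0102). Of 7 B cell markers 3 passed, with sums of 702 to 861, 419 to 463 and 255 to 703, and Cd79a had means of 335, 106 and 153, while none of 7 mast cell and basophil markers passed. Of the CD4 T cell markers, Cd4 had means of 442, 234 and 116 and Zbtb7b of 789, 1002 and 1769. The part of these marker levels in the results was not tested. In bulk samples, fewer cells that transcribe a gene and less RNA per cell cannot be told apart.

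The promoters show how differently these genes begin. RefSeq start sites and promoter sequences were found for all 10 genes (build GRCm38.p6), and the 250 bases before each start were searched on both strands for GGAA (the ETS core, also part of NFAT sites), TGANTCA (AP-1), TGTGGT (RUNX), GGTGTGA (T-box) and TGACGTCA (the cyclic AMP response element, CRE). Of 32851 such promoter windows in the mouse table, 93.4% held GGAA, 6.75% TGANTCA, 14% TGTGGT, 3.33% GGTGTGA and 1.55% TGACGTCA. The 5 windows printed here belong to the gene with the highest level (Gzmb), the 3 genes that were lower under MEK inhibition (Prf1, Srgn and Gzmc) and Fas ligand, and capitals mark matches to these motifs or, where the match is on the other strand, to their reverse complements.
Prf1 (chr10:61297586-61297835, plus strand): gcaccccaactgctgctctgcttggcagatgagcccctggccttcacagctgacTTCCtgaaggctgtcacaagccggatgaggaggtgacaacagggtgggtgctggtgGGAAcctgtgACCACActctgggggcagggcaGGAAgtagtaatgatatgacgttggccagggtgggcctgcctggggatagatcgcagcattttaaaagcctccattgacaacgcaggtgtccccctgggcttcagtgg
Srgn (chr10:62507758-62508007, minus strand): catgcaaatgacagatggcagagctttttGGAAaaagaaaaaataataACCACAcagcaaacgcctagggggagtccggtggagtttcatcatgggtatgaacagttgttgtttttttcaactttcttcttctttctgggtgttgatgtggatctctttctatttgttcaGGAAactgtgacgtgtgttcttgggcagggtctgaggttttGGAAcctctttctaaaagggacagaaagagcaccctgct
Gzmb (chr14:56262335-56262584, minus strand): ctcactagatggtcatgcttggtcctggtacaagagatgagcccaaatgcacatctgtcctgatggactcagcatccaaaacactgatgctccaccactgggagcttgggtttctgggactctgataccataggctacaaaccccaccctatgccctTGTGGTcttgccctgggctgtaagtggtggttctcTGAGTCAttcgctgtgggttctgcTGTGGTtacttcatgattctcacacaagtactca
Gzmc (chr14:56234658-56234907, minus strand): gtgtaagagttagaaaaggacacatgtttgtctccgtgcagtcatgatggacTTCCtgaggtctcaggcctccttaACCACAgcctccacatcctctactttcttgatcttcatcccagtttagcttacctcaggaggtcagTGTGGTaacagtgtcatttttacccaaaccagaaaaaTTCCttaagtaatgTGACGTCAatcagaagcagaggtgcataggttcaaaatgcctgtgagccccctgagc
Fasl (chr1:161788496-161788745, minus strand): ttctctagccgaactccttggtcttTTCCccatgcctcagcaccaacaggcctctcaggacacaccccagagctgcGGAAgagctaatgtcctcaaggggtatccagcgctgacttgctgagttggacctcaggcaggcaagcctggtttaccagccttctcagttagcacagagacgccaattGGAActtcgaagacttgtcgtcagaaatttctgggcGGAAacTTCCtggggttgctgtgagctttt
Each is written 5′ to 3′ on the strand of its gene and ends 1 base before the RefSeq start. Gzmb was the member with an AP-1 match (TGAGTCA, first base 58 bases before the RefSeq start), between RUNX matches at 93 and 34 bases, and its window had no GGAA. The Gzmb transcript used for the signal starts at 56262260, downstream of the RefSeq start at 56262334, and the bases between were not searched. Prf1 held 3 GGAA matches and 1 RUNX match, Fasl held 5 GGAA matches and none of the other motifs, and the Srgn window at its internal start held 3 GGAA matches and 1 RUNX match. Gzmc held a whole CRE, TGACGTCA, 57 bases before its start, and Gzmf held the same letters at 82 bases. Gzmc also held 2 GGAA and 2 RUNX matches. At the aligned place Gzmd has TGATGTCA, which differs by C4T, and Gzme has TGACATCA, which differs by G5A (positions counted from 1 at the 5′ end of TGACGTCA, its base first). The promoters of Gzmd and Gzme were 94.8% identical and those of Gzmc and Gzmd 80.5%, whereas that of Gzmb was 44.1% to 47.2% identical to the promoters of Gzmc, Gzmd, Gzme and Gzmf. No pair of matches shared a base. A match is a run of letters, not an occupied site, and nothing here measured binding.

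Chronic stimulation was first compared with acute stimulation. The filter asked for a deposited signal, before scaling, of 50 or more in at least 3 libraries. Gzmd, Gzme and Gzmf did not pass it, and the other 7 of the 10 genes were tested. In limma fitted to all genes with Benjamini-Hochberg adjustment, 6 of these 7 were higher in chronic libraries, namely Prf1, Gzmc, Srgn, Gzma, Fasl and Gzmb, and Gzmk was lower. Among all 15942 genes tested, 18% were called higher and 15.9% lower at an adjusted p under 0.05. The median log2 fold change of the 7 genes was 1.22, against -0.02 over all genes tested. On library totals 5 members were called higher, without Gzmb, and 1 lower, beside 1096 genes of the whole table called higher and 6846 lower (2875 and 2528 with the trimmed mean). A gene could pass the filter through the group in which it is high, so the count describes the 7 genes and no more.

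The comparison of MEK-inhibited with chronic libraries divided the same genes. Prf1, Srgn and Gzmc, 3 of the 7, were lower under MEK inhibition, and 0 were higher. For Gzmb, Gzma, Fasl and Gzmk no difference passed the test. Of all genes tested, 9.93% were called higher and 7.65% lower, and the median log2 fold change was -0.34 for the 7 genes against 0.04 for all. Against acute libraries, 4 genes (Prf1, Fasl, Gzma and Gzmb) were higher in MEK-inhibited libraries and Gzmk was lower, beside 14.4% of all genes called higher and 11.5% lower. There the medians were 0.88 and 0.00 with the trimmed mean, to which these shares also belong. On library totals 2 genes (Prf1 and Fasl) were called higher and 1 lower. The 3 comparisons share libraries in pairs, so their values are given side by side and are not independent of one another.

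**Figure D1:**
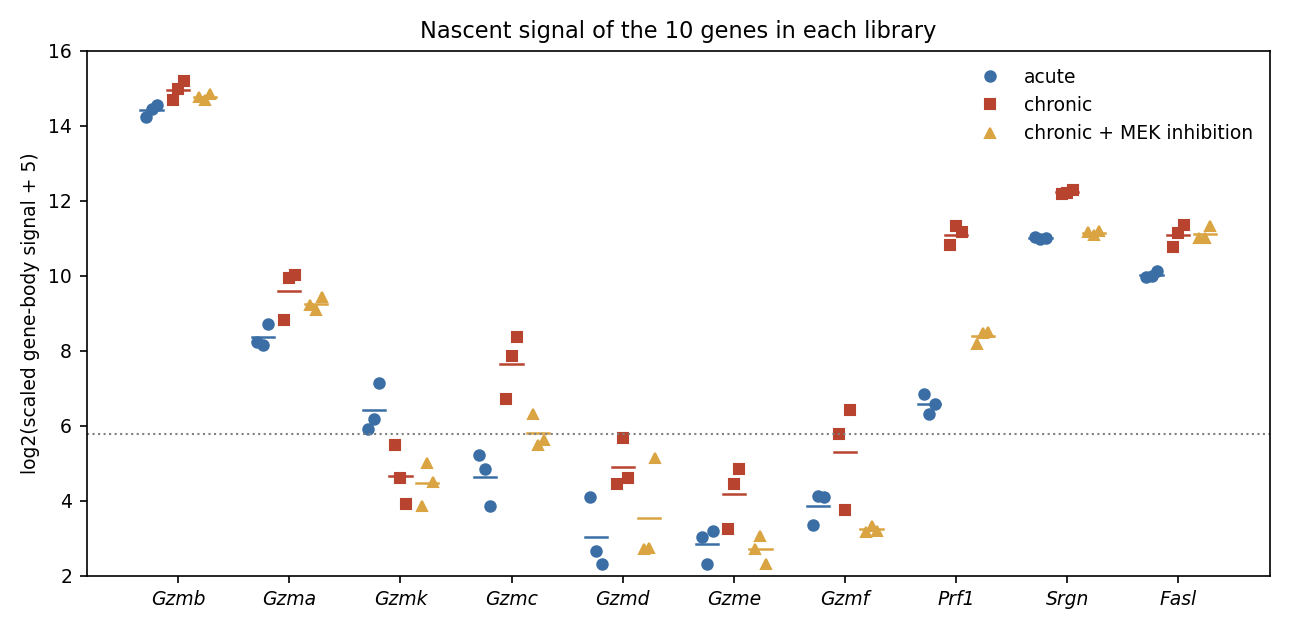
Scaled gene-body signal of the 10 genes, as log2(signal + 5), in each of the 9 libraries (points) with the group mean (bars). The dotted line marks a scaled signal of 50, whereas the filter of 50 was applied before scaling. Gzmb lies above all others in every library, Prf1 and Srgn are highest in the chronic libraries, and Gzmd, Gzme and Gzmf stay mostly below the line.

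Perforin, the pore-forming protein without which granzymes do not reach the target's cytosol, had the largest fold changes of the 7 in both comparisons with the chronic libraries. Prf1 (ENSMUSG00000037202, chromosome 10, 61297833 to 61304680, plus strand, GRCm38) had a scaled gene-body signal of 109, 74.1 and 90.4 in the acute libraries. In the chronic libraries it was 1789, 2554 and 2281. In the MEK-inhibited libraries it was 284, 348 and 357. The groups did not overlap, and the MEK-inhibited libraries lay between the other groups, closer to the acute ones. Prf1 was 23.0-fold higher in chronic than in acute libraries, or 4.52 ± 0.21 (SE) on the log2 scale (limma adjusted p = 2.30e-11). Under MEK inhibition it fell by 2.72 ± 0.21 on the log2 scale (limma adjusted p = 4.12e-08) and remained 1.81 ± 0.21 above the acute level (limma adjusted p = 4.43e-06). Per kilobase of the annotated transcript span, which makes genes comparable, Prf1 ranked 10925 of 15942 genes in acute, 768 in chronic and 6936 in MEK-inhibited libraries. These calls held under every alternative setting in which Prf1 was tested. Natural killer cells also transcribe Prf1, and their marker Klre1 was lower under MEK inhibition (-1.81, limma adjusted p = 0.0099) with means of 107, 149 and 40.3. The other natural killer cell markers that could be tested, Fcer1g (0.0078) and Tyrobp (-0.17), were not called there, and Klrb1c, below the filter, had means of 9.87, 24.1 and 40.6. Their part in the result was not tested.

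Serglycin, which packs granzymes and perforin inside the granule, showed the smallest spread between libraries. Srgn (ENSMUSG00000020077, chromosome 10, 62493833 to 62527451, minus strand) gave 2100, 1997 and 2036 in acute libraries and 4666, 4747 and 4985 in chronic libraries. In MEK-inhibited libraries it gave 2273, 2155 and 2346. The chronic libraries stood apart, and the MEK-inhibited values lay just above the acute ones without overlap. Srgn rose 2.34-fold from acute to chronic, by 1.23 ± 0.09 (SE) on the log2 scale (limma adjusted p = 7.13e-09), and fell by 1.09 ± 0.09 under MEK inhibition (limma adjusted p = 9.99e-08). The difference between MEK-inhibited and acute libraries was 0.14 on the log2 scale, with a 95% interval of -0.05 to 0.34 (limma adjusted p = 0.290), and it turned to -0.24 when libraries were scaled to their totals, to -0.20 on the deposited scale and to -0.03 on totals that leave out the ribosomal RNA-like genes.

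Granzyme B, the protease that cuts caspases after an aspartate, was by far the strongest of the 10 genes. Gzmb (ENSMUSG00000015437, chromosome 14, 56258838 to 56262260, minus strand) gave 19227, 22440 and 23839 in acute libraries. It gave 26214, 32245 and 37489 in chronic libraries and 28113, 26122 and 29555 in MEK-inhibited libraries. Every chronic and MEK-inhibited library was above every acute one, while the chronic and MEK-inhibited ranges overlapped. Its signal per kilobase had means of 6379 ± 691, 9343 ± 1648 and 8159 ± 504 (SD over 3 libraries) in that order and placed it 14th, 15th and 15th of 15942 genes. Gzmb supplied 84.2% to 86.6% of the summed signal of the 10 genes in acute, 74.7% to 76.8% in chronic and 83.0% to 84.1% in MEK-inhibited libraries. The rise from acute to chronic was 0.54 ± 0.12 on the log2 scale (limma adjusted p = 0.0013), and the MEK-inhibited libraries were 0.36 ± 0.12 above the acute ones (limma adjusted p = 0.0288). Between MEK-inhibited and chronic libraries the value was -0.18, with a 95% interval of -0.43 to 0.06 (limma adjusted p = 0.332). Both calls depended on the scaling: with library totals the first became 0.05 (limma adjusted p = 0.761) and the other -0.02 (limma adjusted p = 0.893). On the deposited scale they were 0.07 and 0.02, and on totals that leave out the ribosomal RNA-like genes the latter was 0.19 (limma adjusted p = 0.211). The latter was also lost without acute replicate 1 (limma adjusted p = 0.279), 2 (0.0900) or 3 (0.0588) or MEK-inhibited replicate 1 (0.143) or 3 (0.118). The same call was lost with no filter, with limma without trend and robust moderation and with the signal summed over all transcripts.

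Granzyme A, a trypsin-like granzyme, lies with Gzmk on chromosome 13. Gzma (ENSMUSG00000023132, 113093827 to 113100981, minus strand) gave 295, 279 and 413 in acute, 445, 974 and 1024 in chronic, and 595, 539 and 680 in MEK-inhibited libraries. Chronic replicate 1 was far below the other chronic libraries and close to the highest acute one, and no acute library reached either other group. Gzma was higher in chronic than in acute libraries by 1.22 ± 0.27 (SE) on the log2 scale (limma adjusted p = 0.0018) and higher in MEK-inhibited than in acute libraries by 0.88 ± 0.27 (limma adjusted p = 0.0220). The second call was lost on library totals (0.51, limma adjusted p = 0.112) and without acute replicate 1 (limma adjusted p = 0.0999), acute replicate 2 (0.0952), MEK-inhibited replicate 1 (0.0676) or MEK-inhibited replicate 3 (0.0875). It was lost as well on the deposited scale, with no filter, with limma without trend and robust moderation and with the signal summed over all transcripts. The MEK-inhibited and chronic libraries differed by -0.34 (95% interval -0.91 to 0.23, limma adjusted p = 0.459), but without chronic replicate 1 the value was -0.73 with a limma adjusted p of 0.0253.

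Granzyme K, a trypsin-like granzyme often seen in less differentiated effector and memory cells, was the gene of this set with the opposite direction. Gzmk (ENSMUSG00000042385, chromosome 13, 113171608 to 113225908, minus strand) gave 55.1, 67.5 and 137 in acute, 39.5, 19.4 and 10.1 in chronic, and 9.61, 27.2 and 17.7 in MEK-inhibited libraries. Every acute library was above all others, and the chronic and MEK-inhibited ranges overlapped. Gzmk passed the filter only through its acute libraries, so a difference was a condition of being tested. The log2 fold change was -1.75 ± 0.64 (SE) between chronic and acute (limma adjusted p = 0.0428) and -1.95 ± 0.64 between MEK-inhibited and acute libraries (limma adjusted p = 0.0312). Between MEK-inhibited and chronic libraries it was -0.21 (95% interval -1.55 to 1.14, limma adjusted p = 0.885). The transcript with the most signal spans 54.3 kb and overlaps Esm1, a gene on the opposite strand with a mean signal of 34.5 in acute, 4.12 in chronic and 0 in MEK-inhibited libraries, and use of strand is not stated. The shorter Gzmk transcript of 9260 bases gave 3.84, 10.5 and 55.7 in acute libraries and was listed at 0 in the chronic ones, so the level of Gzmk itself is uncertain. The first call was also lost with no filter (limma adjusted p = 0.0511), with a pseudocount of 0.5 (0.0569), with the replicate number as a block (0.0737) and without chronic replicate 2 (limma adjusted p = 0.0929) or 3 (0.153) or MEK-inhibited replicate 3 (0.0551), and the second, which held with no filter (0.0325), with the block (0.0565) and without MEK-inhibited replicate 1 (0.0840) or 3 (0.0739).

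The granzymes C to F lie beside Gzmb on chromosome 14 and are mouse granzymes with chymotrypsin-like or little-studied specificity. Gzmc (ENSMUSG00000079186, 56231441 to 56234656, minus strand) gave 32.0, 23.6 and 9.51 in acute, 100.3, 226 and 323 in chronic, and 74.5, 39.9 and 43.7 in MEK-inhibited libraries. The groups did not overlap, and the MEK-inhibited libraries lay between the others. Gzmc passed the filter through its chronic libraries and MEK-inhibited replicate 1, and with no filter its calls held at 3.01 and -1.90 (limma adjusted p = 0.0004 and 0.0384). Gzmc rose by 3.01 ± 0.53 (SE) on the log2 scale from acute to chronic (limma adjusted p = 0.0002) and fell by 1.84 ± 0.53 under MEK inhibition (limma adjusted p = 0.0202). The fall was not called with the signal summed over all transcripts (limma adjusted p = 0.0594) and without chronic replicate 2 (limma adjusted p = 0.0921) or 3 (0.128) or MEK-inhibited replicate 2 (0.0560) or 3 (0.0752). The difference between MEK-inhibited and acute libraries, 1.17, did not pass the test (95% interval 0.06 to 2.28, limma adjusted p = 0.119).

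The next 3 granzymes were near the bottom of the scale. Gzmd (56129556 to 56132608) gave 12.2, 1.31 and 0 in acute, 16.9, 46.0 and 19.1 in chronic, and 1.60, 1.70 and 30.2 in MEK-inhibited libraries. Gzme (56117626 to 56120625) gave 3.20, 0 and 4.08, then 4.51, 16.9 and 23.6, and then 1.60, 3.39 and 0 in the same order. Gzmf (56205263 to 56211417) gave 5.12, 12.5 and 12.2, then 49.6, 8.47 and 79.8, and then 4.01, 5.09 and 4.17. For Gzmd and Gzme every chronic library was above every acute one, for Gzmf the ranges overlapped, and none was tested because the signal was too low. The transcripts of Gzmd and Gzme were 90% identical, those of Gzmd and Gzmf 82.9% and those of Gzme and Gzmf 84.3%, so reads could be divided among them by the authors' counting, and their single values are uncertain. Gzmf also overlaps Gm4022 on the opposite strand. Gzmc was 68.1% to 69.7% identical to these 3 transcripts.

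Of the granzymes outside the set, Gzmm, on chromosome 10, gave group means of 95.2, 88.6 and 136 and was called in no comparison. In the order of the comparisons above, its log2 differences were -0.10, 0.59 and 0.48 (limma adjusted p = 0.855, 0.319 and 0.372). Gzmg and Gzmn of the chromosome 14 cluster gave at most 10.9 in any library.

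Fas ligand is the surface protein of the second killing route. Fasl (ENSMUSG00000000817, chromosome 1, 161780689 to 161788495, minus strand) gave 993, 1009 and 1111 in acute libraries. It gave 1748, 2234 and 2591 in chronic libraries and 2067, 2046 and 2571 in MEK-inhibited libraries. The MEK-inhibited libraries lay within the chronic range, and all of both groups were above the acute libraries. Fasl rose by 1.06 ± 0.14 (SE) on the log2 scale from acute to chronic (limma adjusted p = 1.06e-05) and was 1.09 ± 0.14 higher in MEK-inhibited than in acute libraries (limma adjusted p = 1.13e-05). MEK-inhibited and chronic libraries differed by 0.03, with a 95% interval of -0.26 to 0.33 (limma adjusted p = 0.915).

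**Figure D2:**
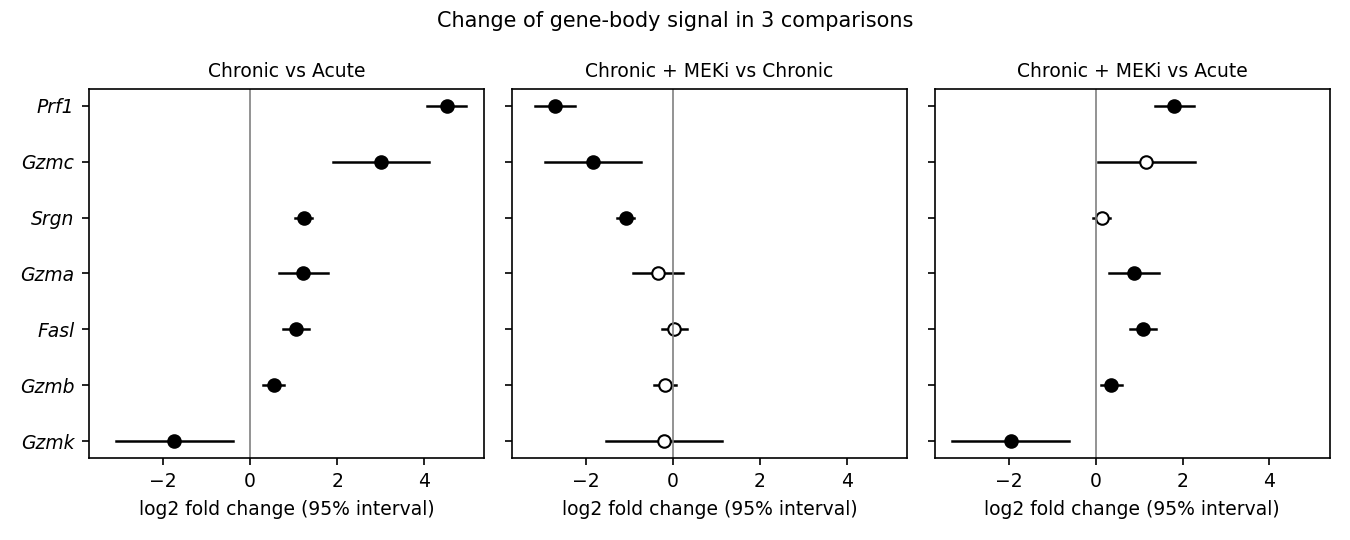
Log2 fold change of gene-body signal for the 7 tested genes in the 3 comparisons, on the log2(signal + 5) scale, with 95% intervals; filled points had a limma adjusted p under 0.05. Prf1, Gzmc and Srgn are filled on the right in the first panel and on the left in the second, whereas Fasl and Gzmb sit near 0 in the second.

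Levels were ordered by signal per kilobase of the annotated transcript. In acute libraries the order was Gzmb at 6379, Fasl at 133 ± 8.19 (SD, n = 3), Srgn at 60.8 ± 1.55, Gzma at 45.9 ± 10.3 and Prf1 at 13.3 ± 2.59. In chronic libraries the means were 322 ± 56.6 for Prf1 and 281 ± 54.2 for Fasl, then 143 ± 4.94 for Srgn and 114 ± 44.8 for Gzma. These SDs are between libraries, and neither pair of genes was compared within each library. In MEK-inhibited libraries Fasl was at 285 ± 38.0, Gzma at 84.5 ± 9.94, Srgn at 67.2 ± 2.87 and Prf1 at 48.2 ± 5.79. By these means Prf1 was 5th in acute and in MEK-inhibited libraries. In chronic ones its mean followed that of Gzmb, with the mean of Fasl within the spread between libraries. Gzmc followed at 6.75 ± 3.54, 67.3 ± 34.7 and 16.4 ± 5.90, and Gzmd, Gzme, Gzmf and Gzmk were each at or below 8.95 in all groups. The Srgn value is divided by a span of 33.6 kb, most of whose upstream part was nearly silent (below), and so understates its level per transcribed kilobase.

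Ratios taken within a library do not depend on the scaling of libraries. The ratio of Prf1 to Gzmb signal was 0.0057, 0.0033 and 0.0038 in acute, 0.0682, 0.0792 and 0.0608 in chronic, and 0.0101, 0.0133 and 0.0121 in MEK-inhibited libraries. The groups did not overlap, and the log2 ratio differed by 4.06 between chronic and acute and by -2.55 between MEK-inhibited and chronic libraries. Each had p = 0.1 in an exact permutation test (two-sided), which is the smallest value possible with 3 libraries against 3. The ratio of Srgn to Gzmb was 0.0854 to 0.109 in acute, 0.133 to 0.178 in chronic and 0.0794 to 0.0825 in MEK-inhibited libraries, so the chronic libraries again stood apart, with log2 differences of 0.69 and -0.91 (exact permutation p of 0.1 for both). The ratio of Fasl to Gzmb was 0.0450 to 0.0517, 0.0667 to 0.0693 and 0.0735 to 0.0870. It was therefore highest in the MEK-inhibited libraries, above the chronic ones by 0.22 on the log2 scale without overlap (exact permutation p = 0.1). The ratio of Gzma to Gzmb, 0.0124 to 0.0173, 0.0170 to 0.0302 and 0.0206 to 0.0230, overlapped between acute and chronic libraries (log2 difference 0.70, exact permutation p = 0.2) and between chronic and MEK-inhibited ones (-0.16, exact permutation p = 0.6). Over the 4 ratios and 3 comparisons, 12 tests, no adjusted p could pass 0.05.

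**Figure D3:**
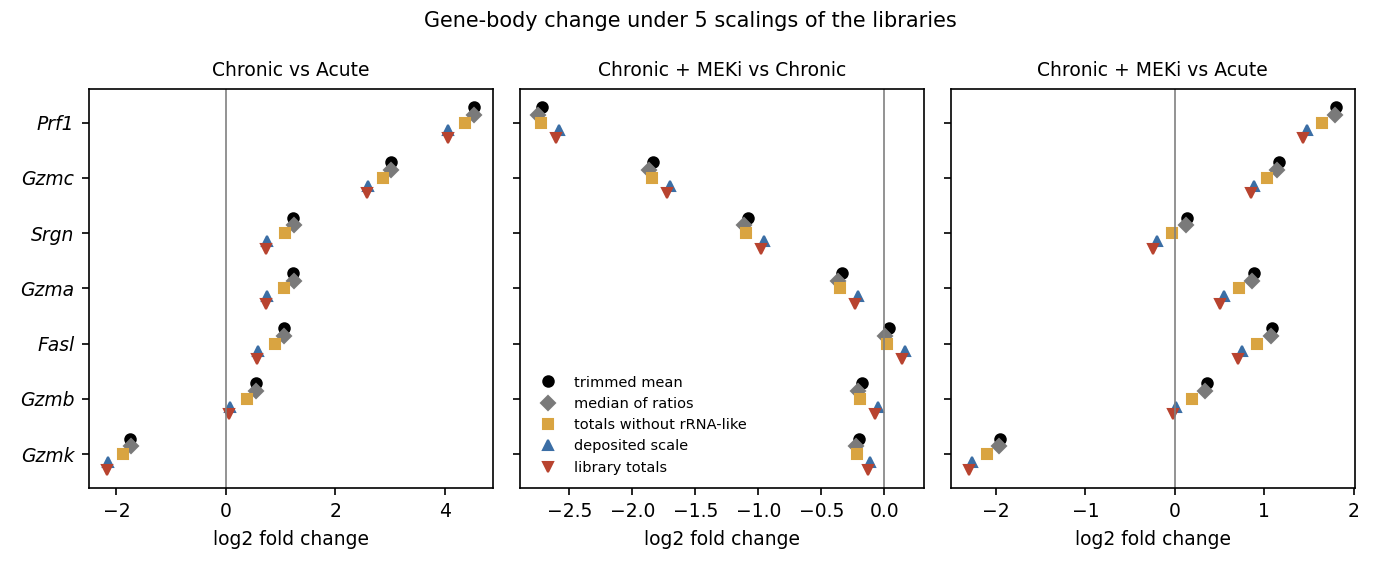
Gene-body log2 fold changes of the 7 tested genes in the 3 comparisons under 5 scalings of the libraries, which differ in how much of the ribosomal RNA-like locus enters the scale. The points of Prf1 stay between 4.05 and 4.53 in the first panel, while those of Gzmb reach 0.05 there and those of Srgn cross 0 in the last.

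The scaling set how large the changes were. Relative to the trimmed mean, the median gene moved by -0.49 (log2) between chronic and acute libraries when these were scaled to library totals, by -0.47 on the deposited scale and by -0.16 on totals that leave out the ribosomal RNA-like genes. The corresponding moves were 0.11, 0.13 and -0.01 between MEK-inhibited and chronic and -0.38, -0.34 and -0.17 between MEK-inhibited and acute libraries. Prf1, Srgn, Gzma, Gzmc and Fasl kept their rise from acute to chronic as a call under all of these, and Prf1, Srgn and Gzmc their fall under MEK inhibition.

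The pause region, the stretch near the transcription start, gives a second reading of the same libraries. Only Gzma, Gzmb, Prf1 and Fasl passed the filter there. Prf1 gave 21.2, 4.75 and 14.8 in acute, 142, 253 and 208 in chronic, and 25.6, 23.4 and 14.4 in MEK-inhibited libraries. The chronic libraries stood above all others, and the acute and MEK-inhibited ranges overlapped. Prf1 rose by 3.55 ± 0.54 (SE) on the log2 scale from acute to chronic (limma adjusted p = 2.97e-05) and fell by 2.97 ± 0.54 under MEK inhibition (limma adjusted p = 0.0009). The difference between MEK-inhibited and acute libraries was 0.58 (95% interval -0.53 to 1.68, limma adjusted p = 0.621). Prf1 passed the filter there through its chronic libraries alone, so a difference was a condition of being tested, and it was not tested when any of these was left out. With no filter, which removes that condition, the rise was 3.54 (limma adjusted p = 4.36e-05) and the fall -2.96 (limma adjusted p = 0.0020).

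In the pause region 1 of the 4 genes (Prf1, admitted by its chronic libraries alone) was called higher and 0 lower in chronic against acute libraries, beside 5.37% and 5.35% of all 7678 genes tested. For MEK-inhibited against chronic libraries the counts were 0 higher and 1 lower, beside 1.56% and 1.43% of all genes, and in MEK-inhibited against acute libraries none was called, beside 3.44% and 2.51%. Gzmb, with pause-region means of 2617 ± 567 (SD, n = 3), 3430 ± 270 and 3103 ± 194, differed by 0.41, -0.14 and 0.27 on the log2 scale (limma adjusted p = 0.124, 0.781 and 0.416). Fasl, with means of 173 ± 15.7, 286 ± 64.3 and 278 ± 95.4, had 0.69, -0.08 and 0.61 (limma adjusted p = 0.101, 0.933 and 0.193). Gzma, with means of 89.0 ± 33.0, 182 ± 112 and 171 ± 28.2, had 0.85, 0.10 and 0.95 (limma adjusted p = 0.165, 0.939 and 0.143). Unadjusted p was under 0.05 for all 4 genes between chronic and acute, for 1 between MEK-inhibited and chronic and for 2 between MEK-inhibited and acute libraries.

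**Figure D4:**
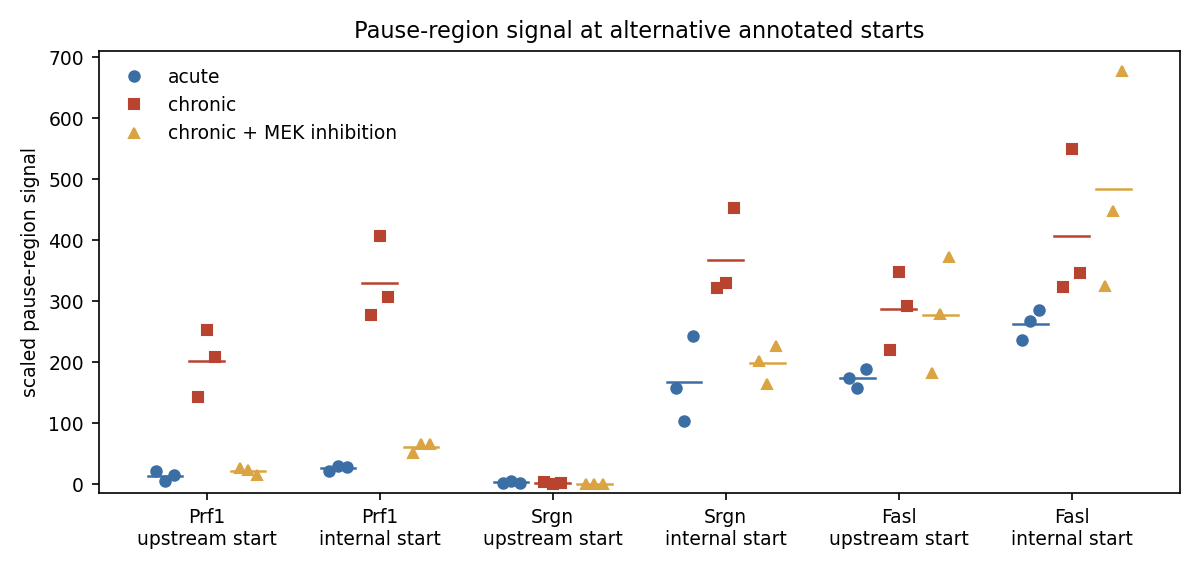
Scaled pause-region signal in each library (points, with group means as bars) at the upstream and the internal annotated start of Prf1, Srgn and Fasl. Signal at Srgn lies at the internal start in every group. Signal at both annotated Prf1 starts is high in the chronic libraries, and the internal one lies within the transcript from the upstream start.

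Prf1, Srgn and Fasl have more than 1 annotated start. The Srgn transcript with the most gene-body signal begins at an upstream start whose pause region held 0 to 4.75 in every library. The internal start, at 62507755, gave 157, 104 and 243 in acute, 321, 329 and 453 in chronic, and 202, 165 and 226 in MEK-inhibited libraries, and the Srgn promoter printed above precedes it. There the chronic libraries did not overlap with the others. With the row of most pause-region signal taken for each gene, an alternative added after the data had been seen, Srgn was higher in chronic than in acute libraries by 1.21 ± 0.28 (limma adjusted p = 0.0029). The fall under MEK inhibition, -0.86 ± 0.28, did not pass the test (limma adjusted p = 0.0872). For Prf1 the internal start, at 61299801, gave 21.2, 29.7 and 28.7 in acute, 277, 407 and 307 in chronic, and 51.1, 65.7 and 65.1 in MEK-inhibited libraries. Signal there was higher in chronic than in acute libraries by 3.44 ± 0.36 (limma adjusted p = 4.95e-08). Under MEK inhibition it was lower, by -2.33 ± 0.36 (limma adjusted p = 0.0001). This start lies inside the transcript that begins at 61297833, so its signal can include RNA begun upstream. Use of the internal start itself was not tested. With the same choice of row Fasl was called between MEK-inhibited and acute libraries, at 0.86 ± 0.25 (limma adjusted p = 0.0300). The internal Fasl start, at 161788358, lies near the upstream one, at 161788495, so both regions may share signal.

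Pausing, the pause-region signal relative to the gene body of the same library, was tested for the same 4 genes among 7413. No gene of the whole table was called, which is 0% in each of the 3 comparisons, although 749, 394 and 591 genes had an unadjusted limma p under 0.05. For Prf1 the relative pause-region signal of chronic against acute libraries was -0.97 on the log2 scale, with a 95% interval of -1.70 to -0.25 (limma adjusted p = 0.370). With a pseudocount of 20 this value was -1.60 and called (limma adjusted p = 0.0244). It was -0.26 between MEK-inhibited and chronic libraries (95% interval -0.98 to 0.47, limma adjusted p = 0.982; 0.26 with a pseudocount of 20, 0.24 with summed transcripts and 0.39 with the row of most pause-region signal) and -1.23 between MEK-inhibited and acute libraries (95% interval -1.96 to -0.50, limma adjusted p = 0.505). The pause region of this Prf1 transcript held 4.75 to 25.6 in the acute and MEK-inhibited libraries, close to the pseudocount of 5.

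Cytotoxic cells protect themselves from their own granzymes with serpins. All 5 serpins listed as inhibitors were tested. Of these, Serpina3g inhibits cathepsins, and Serpinb9b passed the filter only through its chronic libraries. In chronic against acute libraries 4 were higher and 1, Serpina3g, was lower (3 and 1 on library totals), with a median log2 fold change of 2.99. Over all genes tested, 18% were called higher and 15.9% lower there. Under MEK inhibition, 3 fell and 1, Serpina3g, rose relative to chronic libraries (median -2.86), beside 7.65% and 9.93% of all genes. Against acute libraries only Serpina3g was called, lower, beside 14.4% of all genes called higher and 11.5% lower, and the median of the 5 was -0.01. Serpinb9, the serpin that blocks granzyme B, gave 657, 508 and 628 in acute, 3769, 4904 and 5782 in chronic, and 680, 574 and 703 in MEK-inhibited libraries. The chronic libraries stood far above both other groups, which overlapped. Serpinb9 rose by 2.99 ± 0.16 (SE) from acute to chronic (limma adjusted p = 8.44e-11) and fell by 2.86 ± 0.16 under MEK inhibition (limma adjusted p = 5.89e-10). It was named, as was Serpinb6a, after its values had been seen, because all 5 inhibitors are described.

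The related Serpinb6b had means of 146, 2448 and 128, and differed by 4.02 ± 0.22 and -4.22 ± 0.22 on the log2 scale in these comparisons (limma adjusted p = 1.41e-10 and 3.89e-10). Serpinb9b, a relative of Serpinb9, had means of 11.1, 252 and 10.1, with 4.06 ± 0.58 and -4.06 ± 0.58 (limma adjusted p = 2.63e-05 and 5.57e-05). Serpinb9b passed the filter only through its chronic libraries, which made a difference a condition of being tested; with no filter it was called at 4.07 and -4.12 (limma adjusted p = 1.55e-05 and 3.23e-05). Serpinb6a rose by 0.56 ± 0.16 from acute to chronic (limma adjusted p = 0.0092), which was not called on library totals (0.08), on the deposited scale (0.09) or on totals that leave out the ribosomal RNA-like genes (0.41). Serpina3g, a serpin of another clade that inhibits cathepsins, went the other way, with means of 873, 88.8 and 277 and log2 differences of -3.27 ± 0.27, 1.63 ± 0.27 and, against acute, -1.64 ± 0.27 (limma adjusted p = 2.97e-08, 0.0003 and 0.0002). Serpinb genes are members of families of similar copies on chromosome 13, so single values may share reads.

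**Figure D5:**
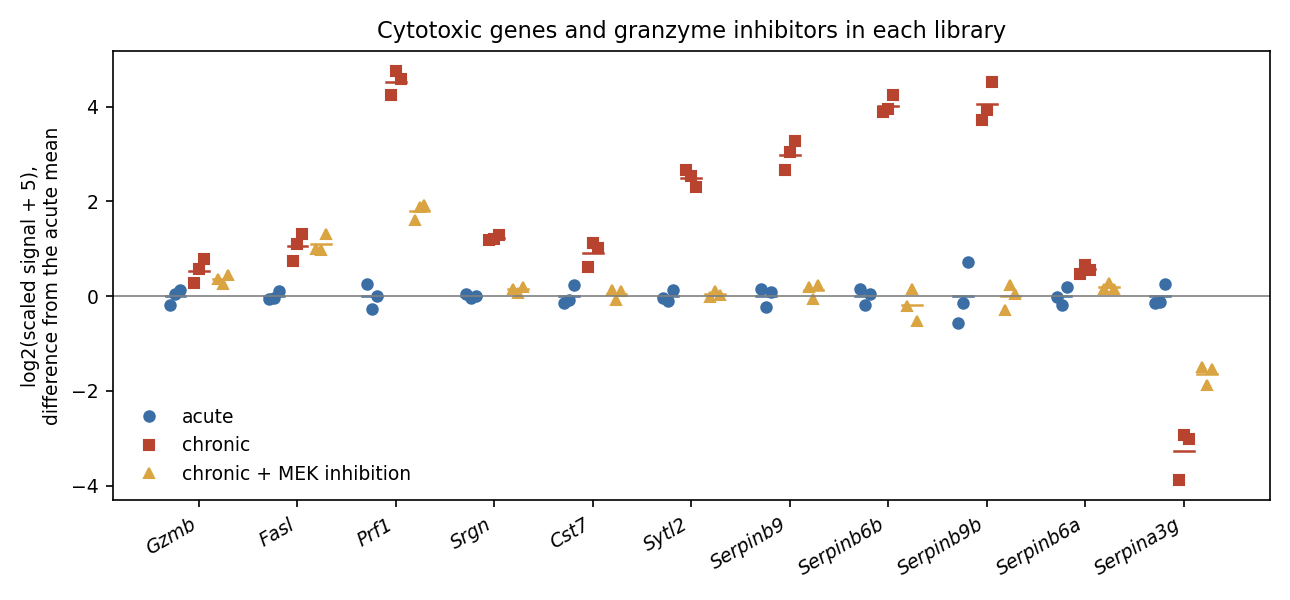
Log2(scaled gene-body signal + 5) in each library, as the difference from the acute mean of the same gene (bars are group means). Shown are members of the set, Cst7, Sytl2 and the 5 serpins listed as inhibitors, of which Serpina3g inhibits cathepsins. Serpinb9, Serpinb6b, Serpinb9b, Sytl2, Cst7 and Srgn have their MEK-inhibited libraries near 0, Prf1 lies between, and Gzmb and Fasl keep theirs near the chronic ones.

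Among 12 genes of granule processing and contents, 9 were tested, and 5 were higher and 0 lower in chronic than in acute libraries, but 1 and 1 on library totals (all genes 18% and 15.9%). The medians were 0.35 and, on library totals, -0.13. Under MEK inhibition 3 were lower and 0 higher than in chronic libraries, beside 7.65% and 9.93% of all genes. Cst7, which encodes cystatin F, an inhibitor of the cathepsins that activate granzymes, had means of 836, 1585 and 860, rose by 0.91 ± 0.16 (SE; limma adjusted p = 0.0002) and fell by 0.87 ± 0.16 (limma adjusted p = 0.0006). Ctsc, the cathepsin that removes the granzyme propeptide, was lower in MEK-inhibited than in acute libraries, by -0.84 ± 0.14 (limma adjusted p = 0.0002), with means of 1458, 1405 and 808.

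Among 20 genes of granule transport and exocytosis, 19 were in the tables and 18 were tested. Chronic against acute libraries gave 4 higher and 5 lower, or 2 higher and 8 lower on library totals, and MEK-inhibited against chronic libraries 4 higher and 2 lower. The latter counts were 6 and 2 on the deposited scale and 1 and 2 with no filter or a trimmed mean over all genes. Against acute libraries 3 were higher and 2 lower in MEK-inhibited ones, but 0 and 6 on library totals. All genes were called higher and lower in these comparisons at shares of 18% and 15.9%, 9.93% and 7.65%, and 14.4% and 11.5%. Sytl2, a synaptotagmin-like protein that binds Rab27a and docks granules at the membrane, had means of 558, 3180 and 574, rose by 2.50 ± 0.14 (SE; limma adjusted p = 1.38e-10) and fell by 2.45 ± 0.14 under MEK inhibition (limma adjusted p = 7.35e-10). Its relative Sytl1 was higher in MEK-inhibited than in chronic libraries by 1.19 ± 0.26 (limma adjusted p = 0.0026). Lyst, whose loss causes giant granules in Chediak-Higashi syndrome, was lower in chronic and in MEK-inhibited than in acute libraries, by -1.28 ± 0.09 and -1.02 ± 0.09 (limma adjusted p = 4.22e-09 and 1.47e-07). Stx4a, a membrane fusion protein, was 0.73 ± 0.18 higher in MEK-inhibited than in acute libraries (limma adjusted p = 0.0058), a call lost on library totals (0.35) and without MEK-inhibited replicate 1 (0.50).

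The death receptor list holds ligands, receptors and signalling proteins of the Fas, TRAIL and TNF pathways, and all 13 genes were tested. Chronic against acute libraries gave 3 higher and 4 lower, or 2 higher and 8 lower on library totals, MEK-inhibited against chronic 4 higher and 2 lower, and MEK-inhibited against acute 5 higher and 4 lower, or 3 and 5 on library totals. All genes were called higher and lower at 18% and 15.9%, 9.93% and 7.65%, and 14.4% and 11.5% in the same order. Fas, the receptor itself, had means of 580, 450 and 1215 and was 1.44 ± 0.18 (SE) higher in MEK-inhibited than in chronic libraries (limma adjusted p = 1.18e-05). Casp8, the initiator caspase, was lower in MEK-inhibited than in acute libraries by -1.42 ± 0.10 (limma adjusted p = 6.65e-09), and Tnfrsf10b, a receptor for TRAIL, was higher by 1.40 ± 0.14 (limma adjusted p = 6.07e-07). Lta, which encodes lymphotoxin, was lower in chronic than in acute libraries by -1.94 ± 0.20 (limma adjusted p = 3.05e-05).

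Of 19 transcription factors linked to cytotoxic genes, 18 were tested. Chronic against acute libraries gave 10 higher and 6 lower, or 8 and 8 on library totals, MEK-inhibited against chronic 6 higher and 11 lower, and MEK-inhibited against acute 9 higher and 5 lower, or 5 and 7 on library totals. The shares over all genes were 18% and 15.9%, 9.93% and 7.65%, and 14.4% and 11.5%. Egr2, an early growth response factor, had means of 176, 2075 and 192, rose by 3.52 ± 0.22 (SE) and fell by 3.42 ± 0.22 (limma adjusted p = 6.24e-10 and 3.23e-09). Tcf7, the factor of stem-like and memory cells, went the other way, with -2.03 ± 0.15 and 1.56 ± 0.15 (limma adjusted p = 7.91e-09 and 6.58e-07). Tbx21, which encodes T-bet, a known activator of Prf1 and Gzmb, had means of 5575, 4618 and 12689. It was 1.19 ± 0.09 higher in MEK-inhibited than in acute libraries (limma adjusted p = 2.74e-08). Tbx21 was also 1.46 ± 0.09 higher in MEK-inhibited than in chronic libraries (limma adjusted p = 3.07e-09), a comparison for which the naming rule did not select it. The part of Tbx21 in the levels of Prf1 and Gzmb was not tested. Bach2, a repressor of effector genes, was lower in MEK-inhibited than in acute libraries by -1.53 ± 0.10 (limma adjusted p = 3.27e-09).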

How the data were processed

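Nascent RNA from 9 libraries of mouse CD8+ T cells was analysed as 2 deposited tables, gene body and pause region. Their values are signal that the authors scaled by 1 factor per library, in steps of 0.764 to 1.06 that are not single reads, so no count model was used. Per the submitters' processing notes, tools included FastQC 0.12.0, Trim Galore 0.6.10, STAR 2.7.0a, SAMtools 1.19.2, deepTools 0.1.9 and R 4.1.2, with build mm10. The limits of both regions, use of strand and annotation are not given in the sources used here.

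Of 118482 rows per table, 117346 matched GENCODE M21 transcripts with their version, 383 without it and 753 not at all. The numbered chromosomes of the matched rows ran from 1 to 19. Libraries were scaled by a trimmed mean of their log ratios, each gene with equal weight, over genes passing the filter (30% of log ratios and 5% of levels trimmed at each end). Signal entered as log2(signal + 5), which understates the folds of weak genes. A limma model over all 9 libraries (limma 3.58.1, R 4.3.3, trend and robust) gave p-values with Benjamini-Hochberg adjustment per comparison; the script was tested on simulated data. Summaries were made in Python 3.11.15 with pandas 2.3.3. The genes, lists and tests were chosen with earlier results of these data known. Per cytotoxicity list (not the cell type markers) and comparison, the called gene with the largest rise and the largest fall was named among those with a mean of at least 100 in the higher group, as were all other granzymes. A gene that this rule selects in the death receptor list is not reported here. For the genes most like each member, the 3 smallest root mean square differences of centred log2 values were taken.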

Additional observations from a re-analysis of the deposited data

How the results depend on the processing

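Library totals, the deposited scale, totals that leave out the ribosomal RNA-like genes, a median of ratios, other pseudocounts and filters, other rows per gene, a replicate block and leaving out each library were tried. Of the gene-body values of the 7 tested genes, 438 kept direction and side of the threshold under these settings. Another 36 lost the call, 1 gained it and 14 changed sign. The 438 include all values for the row of most pause-region signal, a choice that leaves gene-body values unchanged. Where no value shows otherwise, the cause was not tested. Members called between MEK-inhibited and acute libraries fell from 5 to 3 with library totals, the deposited scale, no filter, limma without trend and robust moderation, or summed rows, and ranged from 2 to 5 without 1 library. In the pause region, those called between chronic and acute were 0 with a filter of 200, which left Prf1 untested, and 2 with summed rows, the replicate block or the row of most pause-region signal (0 to 1 without 1 library). Those called between MEK-inhibited and chronic were 0 with a filter of 200 (0 to 1 without 1 library), and between MEK-inhibited and acute 1 with the row of most pause-region signal. In pausing, 1 (Prf1, -1.60) was called between chronic and acute with a pseudocount of 20. Beside the members, calls over all genes in the gene body went from 2802 to 1637 between MEK-inhibited and chronic and from 4118 to 2642 between MEK-inhibited and acute with no filter. In the pause region they ranged over all settings from 455 to 1723 (823 as reported) between chronic and acute, from 107 to 335 (230) between MEK-inhibited and chronic and from 206 to 629 (457) between MEK-inhibited and acute.

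Sign changes among gene-body values were as follows. Between MEK-inhibited and chronic, Fasl was -0.0361 with no filter or a trimmed mean over all genes and -0.0160 with summed rows, and ranged from -0.12 to 0.16 without 1 library, as Gzmk did from -0.58 to 0.20. Between MEK-inhibited and acute, Gzmb was -0.0250 with library totals, Srgn was -0.24, -0.20 and -0.0264 with library totals, the deposited scale and totals that leave out the ribosomal RNA-like genes, and Serpinb9 was -0.25, -0.21 and -0.0394 (-0.0354 to 0.21 without 1 library). Serpinb6a was -0.19 and -0.15 with the first 2 of these, and Serpinb9b was 0.0398 with a pseudocount of 0.5 and 0.0332 with summed rows (-0.33 to 0.31 without 1 library). Between chronic and acute, Gzmm ranged from -0.26 to 0.0677 without 1 library, and Snx18 was -0.0064 with library totals.

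Sign changes in the pause region were those of Gzmb with library totals (-0.20 between chronic and acute, 0.12 between MEK-inhibited and chronic, -0.0792 between MEK-inhibited and acute) and the deposited scale (0.0609 between MEK-inhibited and chronic). Between MEK-inhibited and chronic, Fasl was 0.18 with library totals, 0.12 on the deposited scale, 0.11 with summed rows and 0.24 with the row of most pause-region signal (-0.30 to 0.20 without 1 library), and Gzma ranged from -0.42 to 0.56. Pausing of Prf1 between MEK-inhibited and chronic was 0.26 with a pseudocount of 20, 0.24 with summed rows and 0.39 with the row of most pause-region signal (-0.42 to 0.0164 without 1 library).

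Same-numbered libraries of different groups had correlations of their deviations between -0.533 and 0.0979. Between acute and chronic libraries these were 0.0923, 0.0979 and 0.0747, against -0.0766 to -0.0119 for libraries of different number. In the other comparisons same-numbered libraries had -0.533 to 0.0905. Deviations from means of 3 libraries cannot settle whether the numbers pair the libraries. With the replicate number as a block, Gzmk was not called between chronic and acute (limma adjusted p = 0.0737) or between MEK-inhibited and acute (0.0565), and Gzmb was called in the pause region between chronic and acute (0.0452). With the filter at 200, Gzmc and Gzmk were not tested, and Gzmk did not pass without any 1 of the acute libraries.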

Other observations

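The genes whose 9 values were most like those of a member, among 11277 candidates, are given as a description without a test; likeness is the root mean square difference of centred log2 values. Prf1 was nearest to Havcr2 (0.366), which encodes the inhibitory receptor TIM-3 and had means of 190, 4854 and 472 in acute, chronic and MEK-inhibited libraries. It was followed by Myo10 (0.388) and Adamts14 (0.414). Srgn was nearest to Cd274 (0.0857), which encodes PD-L1 and had means of 3848, 8064 and 3911, and then to Satb1 (0.112) and Kdm2b (0.119). Fasl was nearest to Tubb4b (0.0855), Pcna (0.0872) and Fam20b (0.113). Gzmb was nearest to Snx32 (0.0809), Ccr4 (0.0816) and Cfl1 (0.0828), and Gzma to Kcnip1 (0.177), Sspn (0.186) and Capn10 (0.215). The weak genes had no close neighbour: the nearest to Gzmc was Tnfsf14 (0.474) and to Gzmk Zfp980 (0.413).

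The neighbours of the granzyme genes were mostly silent. On chromosome 14, the mast cell proteases Mcpt1, Mcpt2, Mcpt4, Mcpt8 and Mcpt9, the chymases Cma1 and Cma2, and Ctsg did not pass the filter, with group means of at most 27.0. Khnyn was called in no comparison, and Sdr39u1 was higher in chronic than in acute libraries by 0.57 ± 0.17 (SE; limma adjusted p = 0.0125), a call lost on library totals (0.08) and without acute replicate 1 (limma adjusted p = 0.0594) or chronic replicate 2 (0.0759). Stxbp6, listed with them, lies on chromosome 12 in the annotation and was lower in chronic and in MEK-inhibited than in acute libraries, by -2.45 and -2.40 (limma adjusted p = 0.0008 and 0.0013). On chromosome 13, Snx18 was higher in chronic than in acute libraries by 0.48 ± 0.12 (limma adjusted p = 0.0046) and at -0.0064 on library totals, and Cdc20b was called in no comparison.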
